A study of Mus musculus with 4 samples.

Results

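The cytosolic ribosomal protein genes encode the protein parts of the ribosome that works in the cytoplasm. They were taken by symbol from the deposited count table, as Rpl and Rps genes followed by a number, together with Rplp0, Rplp1, Rplp2 and Rpsa and without ribosomal S6 kinases, an S19 binding protein and named pseudogenes. This gave 88 of 13825 genes. All 88 passed the filter of a mean of at least 10 counts over the libraries, as did 13084 genes in all. Of the 88, 77 are proteins of the mature ribosome, 46 of the large and 31 of the small subunit, and are called the core members here. The other 11 are gene copies or paralogues, namely Rpl6l, Rpl7l1, Rpl22l1, Rpl36al, Rpl37rt, Rps3a2, Rps3a3, Rps4l, Rps12l1, Rps27l and Rps27rt. This division by symbol was made after the files had been seen.

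The RNA came from tibialis anterior (TA) muscle of adult male mice, 14 days after the sciatic nerve had been cut in the left leg. The innervated muscle of WT mice is called WS (WT sham) and their denervated muscle WD, and in whole-body Fgf21 knockout (Fgf21KO) mice these are KS and KD, which makes 4 groups. The study describes its WT mice as C57BL/6J and, for its general gene expression work, the sham muscle as that of the other leg. By that description the sham and denervated muscles of a genotype come from the same mice. Its sequencing method does not say so, and the labels give no pair numbers. Each group was 1 library from RNA of 4 pooled muscles, so no group had a replicate and a difference between 2 libraries carries no p-value. Intervals given with log2 ratios are 95% exact binomial intervals of the counts and cover counting error only, not the spread between mice. No Fgf21 values were analysed here, which leaves the knockout labels unchecked at that gene. The fast fibre genes that were tested, Myh1, Mylpf and Tnni2, together held 25502 to 41843 CPM in each library, CPM being the count relative to the scaled library total, as the labelled tissue would have.

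A ribosome joins a large subunit, which makes the peptide bond, and a small subunit, which reads the mRNA. Cells make the ribosomal proteins in matched amounts with rRNA, and their mRNAs begin with a C followed by a run of pyrimidines, the 5′ terminal oligopyrimidine (TOP) tract, through which mTORC1 and LARP1 set how well they are translated. Loss of nerve input makes skeletal muscle fibres shrink, and in such muscle the synthesis and the breakdown of protein both change.

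The start-site windows below show where a TOP tract was or was not found in some of the members. Each window holds 30 bases of RefSeq sequence (GRCm38.p6), 15 before the annotated start and 15 from it on, 5′ to 3′ on the gene's strand, with a pyrimidine run in capitals where it began with C within 5 bases of the start and was at least 6 bases long. The runs of Rpl27a and Rpl13a go on past the window.
Rpl27a, chr7:109519180-109519209, + strand: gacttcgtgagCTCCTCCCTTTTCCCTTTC
Rpl13a, chr7:45128731-45128760, - strand: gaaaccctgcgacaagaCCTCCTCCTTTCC
Rpl15, chr14:18270972-18271001, - strand: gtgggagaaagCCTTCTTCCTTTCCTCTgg
Rps6, chr4:86857353-86857382, - strand: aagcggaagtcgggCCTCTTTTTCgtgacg
Rps2, chr17:24720048-24720077, + strand: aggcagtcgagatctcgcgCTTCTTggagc
Rplp0, chr5:115559452-115559481, + strand: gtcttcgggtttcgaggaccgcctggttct
Rpl7l1, chr17:46782642-46782671, - strand: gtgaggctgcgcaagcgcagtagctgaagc
Rps27, chr3:90213634-90213663, - strand: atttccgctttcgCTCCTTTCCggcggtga
Rps27rt, chr9:114982725-114982754, - strand: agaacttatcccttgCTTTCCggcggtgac

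Rpl27a and Rpl13a are strong responders and Rpl15 and Rps2 weak ones, and all 4 hold a run. Rplp0 and the paralogue Rpl7l1 hold none by this rule at the annotated start. Rps27rt, a copy of Rps27 at another locus, keeps the end of the parent's tract and the bases after it, while the bases before the start differ.

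The promoter table held 63 of the 88 members. A run as defined above was found in 27 of the 63, or 42.9%, against 13.3% of the 9744 tested genes that the table holds. The motif CCGGAAG, the core of ETS factor sites, was found on either strand in the 300 bases around the start (250 before it) of 25 members, or 39.7%, against 20.5% of all genes. AAGATGG, a form of the YY1 site, was found in 10 members, or 15.9%, against 8.43% of all genes. Members with and without the run had much the same denervation log2 ratio in the additive model described below. Medians were 0.71 for the 27 with it and 0.70 for the 36 without it. Rpl3 and Rps27a, the members with the highest ratios, were not among the 63.

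The libraries held 25249879 (WS), 29150147 (WD), 34141303 (KS) and 27740920 (KD) counts. The 88 members took 1.32% of the counts in WS and 1.32% in KS, and 2.68% in WD and 2.66% in KD. The 2 sham libraries were thus alike, and both denervated libraries held a share about double theirs. Mitochondrially encoded genes took 27.3% and 30.8% of the counts in WS and KS and 19.6% and 20.8% in WD and KD. Without those genes the members' share was 1.81% and 1.91% in the sham libraries of WT and Fgf21KO, against 3.34% and 3.35% in the denervated ones, so the contrast between sham and denervated muscle was also seen outside the mitochondrial counts.

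Levels below are in CPM, with library totals scaled by trimmed mean of M-values (TMM) factors. The members' summed level was 14292 CPM (WS) and 15212 CPM (KS) in sham muscle, against 23973 CPM (WD) and 23832 CPM (KD) after denervation. The median log2 ratio over the 88 members was 0.72 for WD vs WS and 0.66 for KD vs KS, where the median over all tested genes was 0.01 in each. All 77 core members were higher after denervation in both genotypes, as were 9 of the 11 copies and paralogues, 86 of 88 in all against 42.3% of all genes tested. The size was moderate: a log2 ratio of at least 0.5 was reached upward by 74 members in WD vs WS (20.3% of all genes) and by 66 in KD vs KS (20.6% of all genes), whereas a 2-fold higher level was reached by 8 members in WD vs WS (7.25% of all genes) and by 4 in KD vs KS (7.52% of all genes). Rps4l was the only member lower by at least 0.5 in WD vs WS, where 20.8% of all genes were.

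The additive model used all 4 libraries, with terms for genotype and surgery and 1 residual degree of freedom, so each genotype gave 1 estimate of the denervation effect. With p-values from edgeR's quasi-likelihood F-test, adjusted after Benjamini and Hochberg over all 13084 genes, 80 of the 88 members rose with denervation (26.4% of all genes did) and 0 fell (26.6% of all genes did). No member fell at an unadjusted p under 0.05, and DESeq2's Wald test called 80 higher and 0 lower. Of the core members, 45 of 46 in the large subunit and 30 of 31 in the small subunit rose, with median log2 ratios of 0.71 and 0.75. Of the copies and paralogues 5 of 11 rose, with a median of 0.48. In the plot of all members most core genes lie in a narrow band, and their SD without Rpl3 was 0.19 on the log2 scale.

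**Figure D1:**
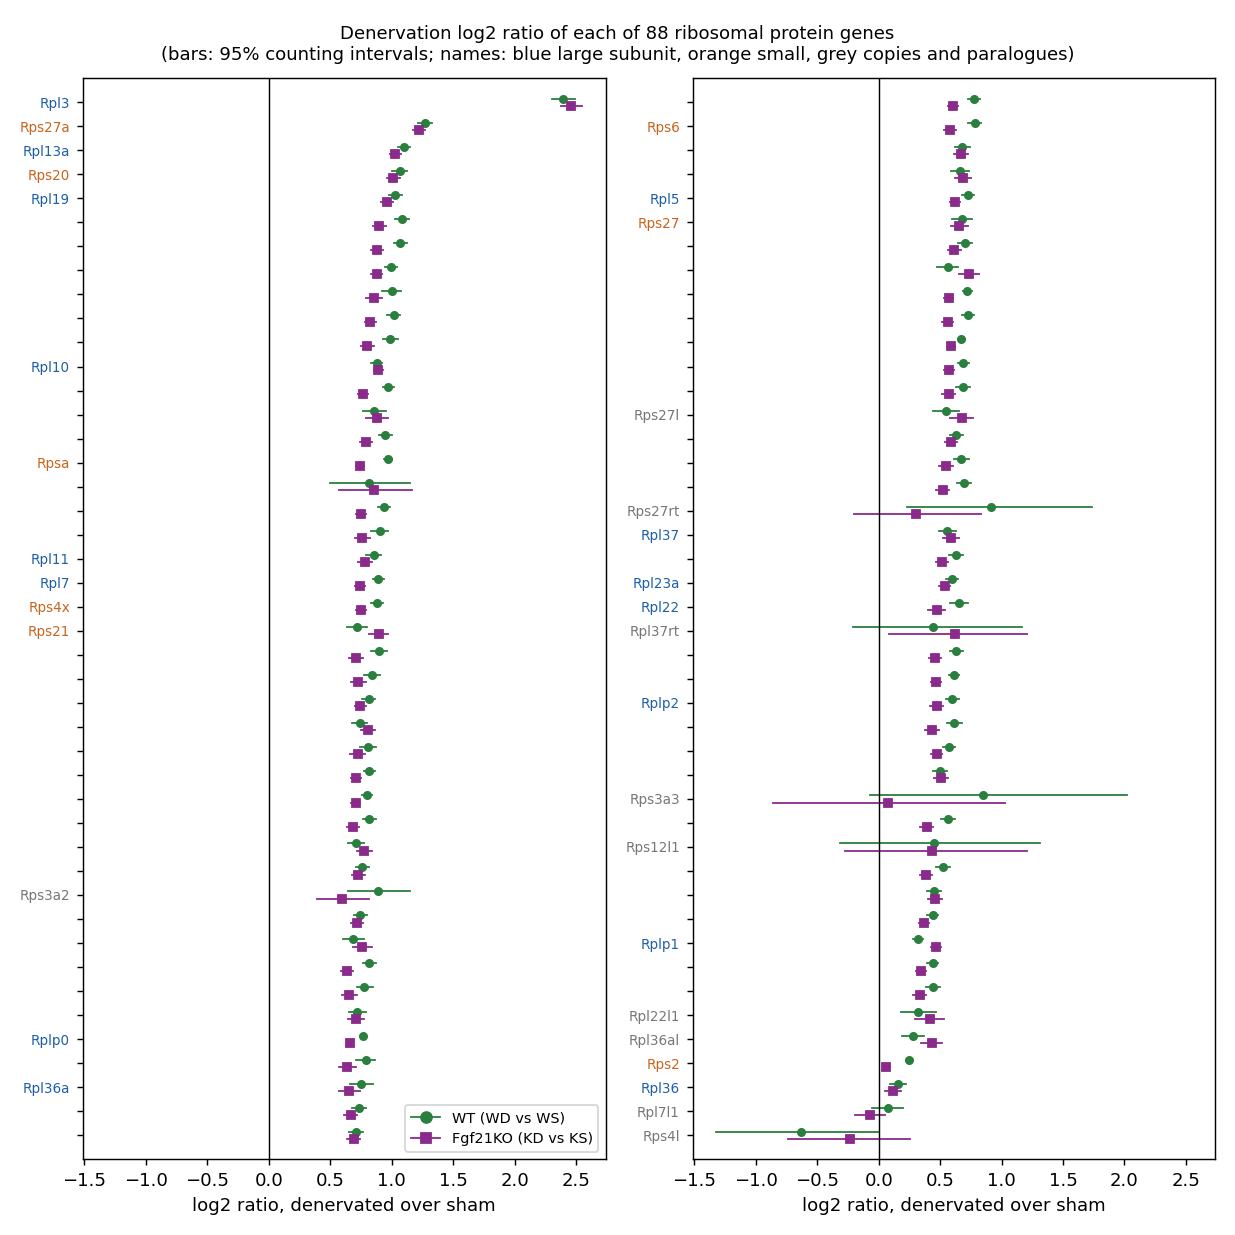
Each row is 1 of the 88 ribosomal protein genes in the order of the additive model, with names for a chosen set, with the log2 ratio of denervated over sham in WT (green circles) and Fgf21KO (purple squares) and 95% counting intervals. Rpl3 stands apart at 2.40 and 2.46, most core genes lie between 0.3 and 1.3, and Rps2, Rpl36, Rpl7l1 and Rps4l are at the lower end.

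Rpl3 had the highest denervation ratio of the 88. It encodes a large subunit protein that reaches toward the peptidyl transferase centre, where peptide bonds are made. Its counts were 1081 and 1339 in the sham libraries WS and KS, and 7985 and 7680 in the denervated libraries WD and KD. Both denervated libraries were far above both sham libraries, and the sham libraries were close to each other once scaled, at 46.5 CPM in WS and 45.1 CPM in KS, against 245 CPM in WD and 248 CPM in KD. The log2 ratio was 2.40 (2.31 to 2.49) in WT and 2.46 (2.38 to 2.55) in Fgf21KO, and 2.43 in the additive model (edgeR's adjusted p = 7.5e-16). The next member, Rps27a, reached 1.25.

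Rpl3 was also the least abundant core member per coding length. Per kb of coding sequence it stood at 38.4 CPM in WS and 37.3 CPM in KS, which was 10.9% and 10.4% of the core median, and ranked 77 of 77 in both. In WD and KD it stood at 203 CPM and 205 CPM per kb, or 34.5% and 36.1% of the core median, and still ranked 77. Denervation thus narrowed the gap between Rpl3 and the other core members without closing it, as the plot of levels by library shows. Per kb of whole transcript it ranked 76 in WS and in KS, 72 in WD and 71 in KD.

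**Figure D2:**
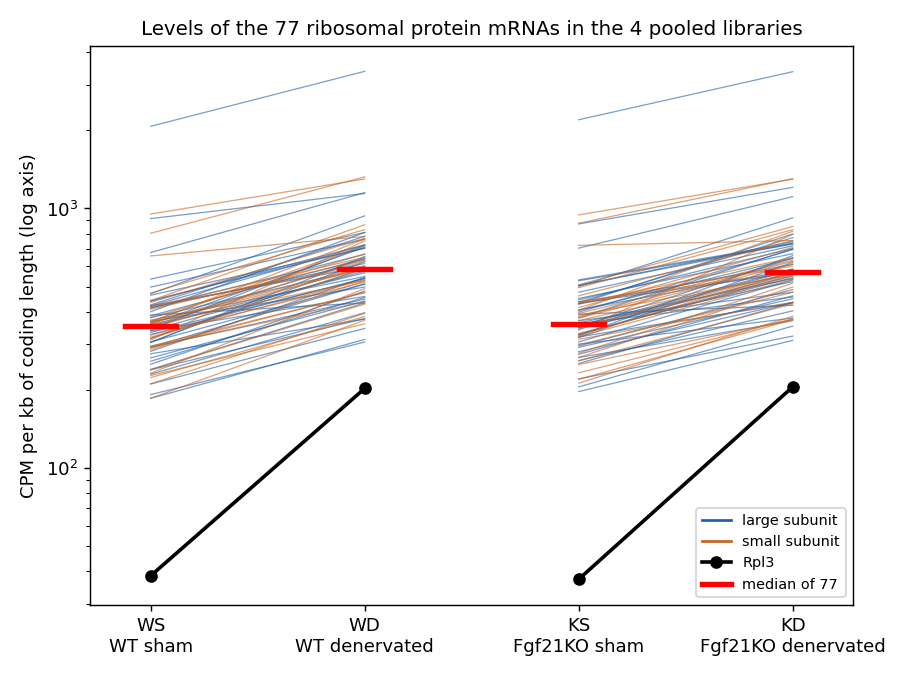
CPM per kb of coding length, on a log axis, of the 77 core members in each pooled library, with lines joining sham and denervated muscle of a genotype and red bars at the median. Rpl3 (black) lies under every other member in all 4 libraries, at 38.4, 203, 37.3 and 205, and has the steepest line.

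Of the Rpl3 transcript, 85.6% of the 50-base windows also occur in transcripts of 26 other genes in the GENCODE M21 annotation, so reads could be split between Rpl3 and its copies. The named pseudogenes Rpl3-ps1 and Rpl3-ps2, singled out here after their values were seen, moved the same way. Rpl3-ps1 had 22 (WS) and 32 (KS) counts in sham muscle and 193 (WD) and 196 (KD) counts in denervated muscle, with a log2 ratio of 2.59 in the additive model (edgeR's adjusted p = 3.4e-08). Rpl3-ps2 had 2, 5, 25 and 26 counts in the same order and a ratio of 2.60 (edgeR's adjusted p = 0.00071). Whether those counts are transcripts of the pseudogenes or reads of Rpl3 was not tested.

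Rps27a, the second highest, encodes ubiquitin fused to a small subunit protein, so that 1 mRNA gives a ribosomal protein and a ubiquitin. WS held 146 CPM of it, WD 351 CPM, KS 159 CPM and KD 372 CPM, with log2 ratios of 1.27 (1.21 to 1.32) in WT and 1.22 (1.18 to 1.27) in Fgf21KO. The denervated libraries lay above the sham libraries in both genotypes by more than 2-fold. Fau, which encodes a small subunit protein with a ubiquitin-like part, and Rack1, a signalling scaffold on the small subunit, belong to the ribosome but lie outside the symbol rule. Both rose, by 0.81 and 0.59.

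Rpl13a, Rps20 and Rpl19 followed Rpl3 and Rps27a in the order of the denervation effect. Rpl13a, a large subunit protein also known as a regulator of translation in inflammation, stood at 185 CPM (WS), 398 CPM (WD), 197 CPM (KS) and 401 CPM (KD). Rps20, a small subunit protein, was at 130 CPM, 272 CPM, 145 CPM and 292 CPM in the same order. Rpl19, a large subunit protein that reaches across to the small subunit, was at 180 CPM, 367 CPM, 187 CPM and 364 CPM. For all 3 the sham libraries lay near each other and the denervated libraries about 2-fold above them, with additive log2 ratios of 1.06, 1.04 and 0.996 (edgeR's adjusted p of 3.3e-10 or lower).

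The lateral stalk of the large subunit, made of Rplp0, Rplp1 and Rplp2, recruits the translation factors that hydrolyse GTP. All 3 rose. Rplp0, the base of the stalk and a common reference gene in qPCR, had a log2 ratio of 0.77 (0.74 to 0.79) in WT and 0.66 (0.63 to 0.68) in Fgf21KO, or 1.64-fold in the additive model. Rplp1 and Rplp2, the paired proteins at its tip, had additive ratios of 0.39 and 0.53. Rplp1 was higher by 0.32 in WT and 0.47 in Fgf21KO, whereas Rplp2 was higher by 0.60 in WT and 0.47 in Fgf21KO, so the pair lay apart in WT and together in Fgf21KO.

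Rpl5 and Rpl11 bind 5S rRNA and, when free of ribosomes, bind the p53 regulator Mdm2. Rpl5 rose by 0.67 and Rpl11 by 0.82 in the additive model, and the levels in the 4 libraries were 237, 392, 260 and 400 CPM for Rpl5 and 128, 231, 135 and 232 CPM for Rpl11 (in the order WS, WD, KS and KD). All 8 proteins listed at the polypeptide exit tunnel rose (median 0.75), with Rpl19 the highest, where 75 of the 77 core members rose. Of the 5 proteins listed at the mRNA entry and exit sites 4 rose (median 0.65), and the remaining one was Rps2.

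Rps6, the small subunit protein that S6 kinases phosphorylate, stood at 167 CPM (WS), 286 CPM (WD), 187 CPM (KS) and 279 CPM (KD). Its log2 ratio was 0.78 (0.73 to 0.84) in WT and 0.58 (0.53 to 0.63) in Fgf21KO, and it rose by 0.68 in the additive model. Rpsa, a small subunit protein that has also been described as a laminin receptor, was at 391, 766, 438 and 733 CPM in the same order and rose by 0.86, with ratios of 0.97 (0.94 to 1.01) in WT and 0.74 (0.71 to 0.77) in Fgf21KO. In both genes the WT ratio was above that in Fgf21KO by more than the counting intervals, which do not include the spread between mice. All 18 core members on the list of genes mutated in Diamond-Blackfan anaemia, an inherited failure of red cell formation, rose as well (median 0.69). That share is near the one of the whole core, of which 75 of 77 rose.

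Of the 77 core members, Rps2 and Rpl36 did not pass the test for denervation. Rps2, a protein at the mRNA entry site, stood at 577 CPM (WS), 686 CPM (WD), 634 CPM (KS) and 661 CPM (KD). Its sham and denervated levels were thus close, with log2 ratios of 0.25 (0.22 to 0.28) in WT and 0.06 (0.03 to 0.09) in Fgf21KO (0.16 in the additive model, edgeR's adjusted p = 0.089). Rpl36, a large subunit protein, was at 122, 136, 123 and 133 CPM, with ratios of 0.16 (0.09 to 0.22) and 0.11 (0.05 to 0.18), and 0.14 in the additive model (edgeR's adjusted p = 0.12). Other sequences share 79.0% of the windows of Rps2 and 81.1% of those of Rpl36. Scaling by total counts alone, which shifted the median of all genes by 0.32, put both past the test, at 0.47 and 0.45.

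Levels among the members were compared per length. Per kb of transcript and averaged over the libraries, the highest members were Rplp1 (708 CPM per kb), Rps2 (641), Rplp0 (637), Rpl23a (502), a protein at the exit of the peptide tunnel, and Rpl10 (489), a protein added late in assembly that lies near the tRNA sites. The order differed between libraries: Rplp1, Rps2 and Rplp0 were the first 3 in every library, while Rpl10 ranked 9 in WS and 12 in KS but 4 in both denervated libraries. Among these 5, Rpl10 rose by 0.88 and Rpl23a by 0.57. The lowest were the copies Rps3a3 (0.91 CPM per kb), Rps4l (2.45) and Rps12l1 (2.75). This order depends on the length used. Per kb of coding sequence, the measure used for Rpl3 above, Rpl41 and Rps29 stood at 2073 and 952 CPM in WS. By that measure Rplp1 was at 914 CPM, Rpl23a at 463 CPM and Rpl10 at 425 CPM in WS.

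Of the 6 pairs of a paralogue and its parent in the table, the paralogue had the lower denervation ratio in 5 in WT and in 5 in Fgf21KO. Rpl7l1, a paralogue of Rpl7, had 855 (WS), 1261 (WD), 1119 (KS) and 1111 (KD) counts, at log2 ratios of 0.07 (-0.05 to 0.20) and -0.07 (-0.19 to 0.05), while Rpl7 rose by 0.82. Rpl7l1 therefore went from 14.3% of the Rpl7 count in WS to 8.14% in WD, and from 13.4% in KS to 7.65% in KD. Of the Rpl7l1 windows 9.2% occur in transcripts of other genes, and of the Rpl7 windows 53.3%. Rpl36al, a close relative of Rpl36a, rose by 0.36 where Rpl36a rose by 0.70. It went from 118% of the parent's count in WS to 85.0% in WD and from 107% in KS to 91.9% in KD. Other genes share 63.3% of the windows of Rpl36al and 85.5% of those of Rpl36a, so reads could be split between genes.

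Rps27l, a paralogue of Rps27 that p53 is known to induce, moved with its parent. It rose by 0.61 against 0.67 for Rps27. Its count was 58.9%, 53.8%, 55.7% and 56.5% of the parent's in WS, WD, KS and KD. Other genes share 22.4% of the windows of Rps27l and 98.6% of those of Rps27. Rps4l, a rare copy related to Rps4x, had 44, 39, 75 and 66 counts, and its log2 ratios of -0.63 (-1.32 to -0.01) and -0.24 (-0.74 to 0.26) did not pass the test (-0.43 in the additive model, edgeR's adjusted p = 0.24), while Rps4x rose by 0.81. Rps27rt had 22, 60, 58 and 75 counts, or 1.15%, 1.40%, 2.22% and 1.75% of the Rps27 count, and 91.1% of its windows are shared with other genes, so these values are uncertain.

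Rpl22l1 was the only member that passed the test for genotype. It encodes a paralogue of the large subunit protein Rpl22. Of the Rpl22l1 windows 65.6% occur in transcripts of 4 other genes, and the part of shared reads in its values was not tested. WT muscle held 26.5 CPM (WS) and 33.1 CPM (WD) and Fgf21KO muscle 33.9 CPM (KS) and 45.1 CPM (KD), so that within sham and within denervated muscle the Fgf21KO library was the higher one. The genotype log2 ratio was 0.40 (edgeR's adjusted p = 0.039), where 0.268% of all genes were higher in Fgf21KO. It did not pass under DESeq2's Wald test or under scaling by total counts. The model treats the sham and denervated libraries of a genotype as independent, although by the study's description they come from the same mice. On that description the genotype p does not include the spread between mice. Rpl22l1 also rose with denervation, by 0.37. Rpl22 itself differed by 0.06 between the genotypes (edgeR's adjusted p = 0.92), and the paralogue's count was 28.9% and 22.9% of the parent's in WS and WD, and 33.1% and 31.8% in KS and KD.

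No member was lower in Fgf21KO by the edgeR test (0.306% of all genes were), none at an unadjusted p under 0.05, and none by DESeq2's Wald test. At an unadjusted p under 0.05, 2 of the 88 were higher, Rpl22l1 and Rps27rt, where 3.29% of all genes were. The other members with the highest genotype ratios, Rps27rt at 0.67 and Rps4l at 0.62, did not pass and rest on under 80 counts in each library. The lowest genotype ratios were those of Rps3a3 at -0.10, Rpl37 at -0.08 and Rplp2 at -0.07, and none of them passed. Rps27rt alone was higher by at least 0.5 in KS vs WS (4.55% of all genes), and Rps4l alone was so in KD vs WD (4.19% of all genes).

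In sham muscle 77 of the 88 members were higher in KS than in WS, against 50.1% of all genes, by a median of 0.09. In denervated muscle 43 of the 88 were higher in KD than in WD, against 48.5% of all genes, with a median of 0.00. The denervation ratio was smaller in Fgf21KO than in WT in 69 of the 88, against 51.3% of all genes, by a median of 0.10. The WS and KS libraries both enter the first and the last of these counts. With 1 library per group the difference between the genotypes in the response could not be tested. Both counts moved with scaling: by total counts alone 50 members were higher in KS than in WS and 51 had the smaller ratio in Fgf21KO.

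Across the core members the ratios of the 2 genotypes, which share no library, went together, with Pearson's r of 0.95 over 77 genes and 0.90 over the 76 without Rpl3, where r was 0.85 over all tested genes. This is a description over genes, which are not replicates. The members whose ratios differed most in the direction of Fgf21KO were Rps4l, Rps21 (0.72 in WT and 0.90 in Fgf21KO) and Rpl37rt. In the other direction they were Rps3a3 (0.85 and 0.07), Rps27rt (0.91 and 0.30) and Rps3a2 (0.89 and 0.60). Apart from Rps21 these are copies with low counts and wide intervals.

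**Figure D3:**
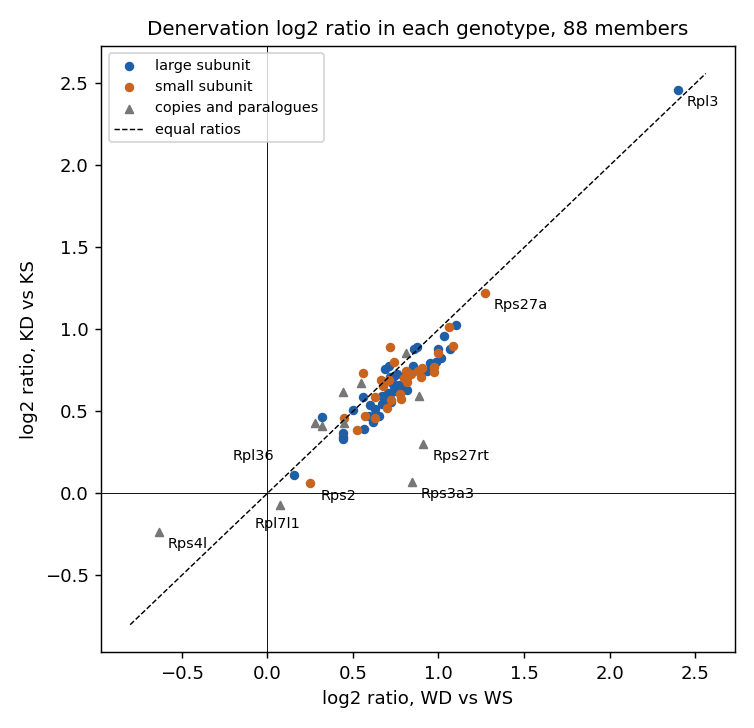
Log2 ratio of denervated over sham for the 88 members in WT (x axis) and Fgf21KO (y axis), by subunit, with copies and paralogues as triangles and a dashed line of equal ratios. Rpl3 and Rps27a lie near the line at 2.40 and 2.46 and at 1.27 and 1.22, and most core members lie slightly under it.

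Other genes of the translation machinery were listed beside the ribosomal proteins. For the counts below, 26.4% of all genes tested rose and 26.6% fell. Of 8 genes tested on the elongation factor list, 7 rose and 1 fell (median 0.46), the one that fell being a kinase, Eef2k. Eef1a1, which delivers aminoacyl-tRNA to the ribosome, had 7058 (WS), 71706 (WD), 9495 (KS) and 68682 (KD) counts, a log2 ratio of 2.83 in the additive model, above that of Rpl3. Eef1b2, its exchange factor, rose by 1.07, and Eef2k, the kinase that inhibits Eef2, fell by 0.36. Under scaling by total counts 0 of the 8 fell. Of 17 mRNAs outside the ribosome known to carry a TOP tract, 5 of them elongation factors as well, 13 rose and 1 fell (median 0.38), the one that fell being Vim (-0.40). Under scaling by total counts 16 of the 17 rose and 0 fell. That scaling moved the median of the 17 to 0.70 and that of all genes from 0.01 to 0.33.

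Of 16 genes of RNA polymerase I and rDNA transcription, which make the rRNA, 9 rose, 1 fell and 6 did not pass (median 0.35). Myc, a transcription factor that drives ribosome production, had 107, 375, 121 and 405 counts in WS, WD, KS and KD and rose by 1.51. Polr1b, the second largest subunit of the polymerase, rose by 0.94, and Taf1c, a subunit of its promoter factor, fell by 0.45. Of 65 ribosome assembly genes, 42 rose, 2 fell and 21 did not pass (median 0.41). Beside both lists, 26.4% of all genes tested rose and 26.6% fell. Riok2, a kinase of late small subunit assembly, rose by 1.40, and Fbl, which methylates rRNA, by 1.06. Bccip and Emg1, both with roles in assembly, fell by 0.28 and 0.23. Under scaling by total counts no gene of the polymerase I and assembly lists fell, with 12 of 16 and 59 of 65 that rose. That scaling moved the medians of these lists to 0.66 and 0.73, and that of all genes from 0.01 to 0.33. The core ribosomal proteins thus had a higher median than either list and a larger share that rose, though none of these lists was tested as a set.

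Of 15 genes that regulate TOP mRNAs, 5 rose and 4 fell (median -0.01). Mtor, the kinase of mTORC1, rose by 0.81 and Rps6kb2, an S6 kinase, by 0.72. Eif4ebp2, an inhibitor of cap-dependent translation, fell by 1.09 and Tsc1, an inhibitor of mTORC1, by 0.66. These shares are near those over all genes, of which 26.4% rose and 26.6% fell. Scaling by total counts moved the median of this list to 0.31 and that of all genes to 0.33, with 9 of the 15 that rose and 2 that fell.

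**Figure D4:**
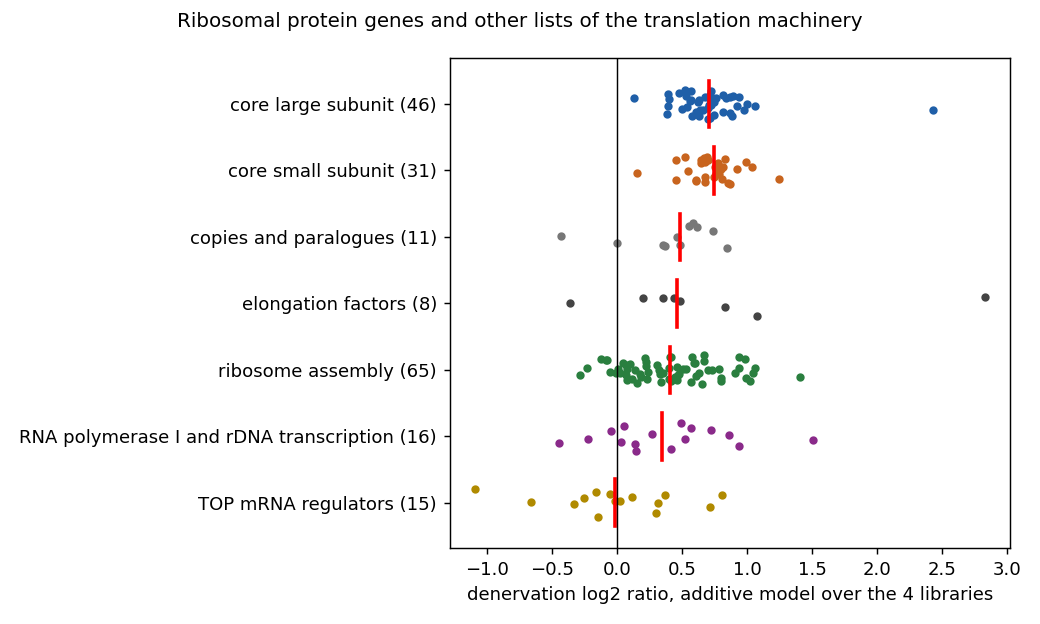
Denervation log2 ratio of each gene (points) in the additive model for the core large and small subunit members, the copies and paralogues, and 4 other lists of the translation machinery, with red lines at the medians. The core members lie above 0 at medians of 0.71 and 0.75, the assembly and polymerase I lists spread across 0 at 0.41 and 0.35, and the points far to the right are Rpl3 and Eef1a1.

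Markers of other cells in the muscle also moved with denervation, where 26.4% of all genes tested rose and 26.6% fell. Of 11 macrophage markers 9 rose, and their summed level was 34.9 CPM in WS and 36.6 CPM in KS against 76.0 CPM in WD and 76.4 CPM in KD. None of the 11 was at 0 in any library, the fewest being the 10 counts of Cd14 in WS. All 7 endothelial markers fell, from sums of 431 to 527 CPM in the sham libraries to 234 and 244 CPM in the denervated ones. Of 9 fibro-adipogenic and fibroblast markers 6 fell (824 to 852 CPM against 531 to 570 CPM), as did 2 of 3 Schwann cell markers tested (53.1 to 53.7 CPM against 22.1 to 22.6 CPM) and the 3 fast fibre genes tested of 10 listed. Of 6 satellite cell markers 2 were tested and neither passed (104 to 121 CPM against 97.8 to 111 CPM). These sums are mostly Itga7, at 116 CPM in WS and 93.5 CPM in KD, where Vcam1 was at 4.21 and 4.27 CPM. They thus say little about satellite cells. Under scaling by total counts 6 of the 7 endothelial markers, 3 of the 9 fibro-adipogenic and fibroblast markers, 1 of the 3 Schwann cell markers and 2 of the 3 fast fibre genes fell. By the same scaling 10 of the 11 macrophage markers and 1 of the 2 satellite cell markers rose. With TMM factors taken without the members, 8 of the 11 macrophage markers rose. The 7 T and B lymphocyte markers listed were not analysed here. In bulk muscle, more cells of a type and more RNA per cell cannot be told apart, and the part of these cells in the ribosomal protein values was not tested.

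Core members were also grouped by the sequence they share with other genes. The median share of 50-base windows that occur in other genes' transcripts was 56.6%, with a range from 0 to 98.6%. The 8 core members with under 20% shared windows had a median denervation ratio of 0.67 and all 8 rose, the 33 with 20 to 60% had 0.71 and all 33 rose, and the 36 with at least 60% had 0.72 and 34 rose. The last group spanned 0.14 to 2.43 and held Rps2 and Rpl36 as well as Rpl3 and Rps27a, and the part of shared reads in these values was not tested. The 114 named ribosomal protein pseudogenes in the table held counts equal to 1.17%, 1.09%, 1.25% and 1.21% of the members' counts in WS, WD, KS and KD. Of the 76 pseudogenes tested 27 rose (26.4% of all genes did) and 0 fell (26.6% of all genes did), with a median of 0.57. Reads counted to these named pseudogenes were thus a small amount beside the members' counts. Copies under other names are not in that amount, and how reads that fit more than 1 gene were counted is not known here.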

How the data were processed

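TA muscle RNA of 4 groups (4 muscles pooled per library, TruSeq Stranded mRNA) was sequenced. The authors deposited gene counts and a table labelled FPKM. In the latter each count was multiplied by a factor specific to the library, 1 was added and log2 taken. The deposited log2 values served only as an alternative. GRCm39 and FastQC are named in the submitters' processing notes, and the aligner and counter are not given in the sources used here.

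Genes with a mean of at least 10 counts (13084) were kept. Log2 CPM used TMM factors and a prior count of 2. edgeR (4.0.16, R 4.3.3) fitted genotype and surgery over the 4 libraries, by quasi-likelihood test with Benjamini-Hochberg adjustment and a threshold of 0.05. The p-values rest on the spread left by this model between pools. With 1 residual degree of freedom per gene, that spread was estimated by sharing information over all genes tested (common coefficient of variation 0.068). It is not a spread between replicates of a group or between single mice. In data simulated for the denervation comparison (13084 genes), 100 genes were changed at each fold. There 90.1% of 2-fold and 98.6% of 4-fold changes were recovered, with a median of 8 false calls. The simulation used 1 common spread taken from these libraries and changed far fewer genes than were called here. Changes under 2-fold, the size seen in most members, were not simulated. DESeq2 (1.42.0), other scalings, filters and prior counts were alternatives. A count of 3, the limit that a count of 0 allows, is 0.092 to 0.129 CPM in these libraries.

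Members and gene lists were chosen with earlier results of these data known. Named genes were paralogue pairs, the 5 highest and 5 lowest by denervation, the 3 highest and 3 lowest by genotype, the 3 differing most between genotypes in each direction, the 5 highest and 3 lowest per kb, set role groups, and the 2 highest and lowest of other lists. Lengths and shared windows came from 1 principal transcript per gene in GENCODE M21, another build than GRCm39, and RefSeq sequences (GRCm38.p6) were matched by symbol. Some genes are not reported by name here.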

Additional observations from a re-analysis of the deposited data

Results flagged for a closer look

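The paralogue Rpl7l1 moved in opposite directions in the genotypes after denervation, where WT had a log2 ratio of 0.07 and Fgf21KO one of -0.07, a difference of -0.14 for Fgf21KO less WT. Each value rests on 1 pooled library per group, both counting intervals include 0, and the difference was not tested. The opposite signs also depend on the scaling. Total counts alone shifted the median of all genes up by 0.28 (WD vs WS) and 0.35 (KD vs KS), more than the size of either ratio. Under that scaling Rpl7l1 gained a denervation call.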

How the results depend on the processing

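No analysis paired by single mice was possible, because only 1 pooled library stands for a group and the labels give no pair numbers. With 1 library per group, no library could be left out of a group. The genotype term of the additive model already sets denervated against sham muscle within a genotype. Of the values that answer a comparison, 255 kept their direction and stayed within 1.5 times (for counts) and 11 moved. Scaling by total counts only, which shifted the median of all genes by 0.28 (WD vs WS) and 0.35 (KD vs KS), put 46 members at least 2-fold higher in each of those comparisons (46 and 46), left 0 lower by at least 0.5 in WD vs WS, 50 higher in KS vs WS, and 0 past the test as higher for genotype. The deposited log2 values left 0 lower by at least 0.5 in WD vs WS. DESeq2 size factors and the lowest prior count tried each put 1 member at least 2-fold higher in KS vs WS. With a log2 ratio of at least 1 required, 4 members rose with denervation and 0 were higher for genotype, and DESeq2's Wald test also gave 0 for genotype. The number that rose with denervation was 80 to 85 under the other alternatives and 75 without the copies and paralogues, an alternative chosen after seeing the data. Over all genes, denervation calls were 6924 by edgeR and 4692 of 13084 by DESeq2's Wald test (508 without an adjusted p), and genotype calls were 75 by edgeR, 158 with DESeq2 size factors, 36 with total counts and 30 by the Wald test. Of single genes, Rpl22l1 lost its genotype call under total counts (0.36) and the Wald test (0.40), and Rpl36, Rpl37rt, Rpl7l1, Rps2 and Rps27rt gained a denervation call under total counts. The cause was not tested. Copies with under 80 counts per library are limited by depth.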
